A study of Fukomys damarensis and Heterocephalus glaber and Mus musculus with 160 samples.

Results

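Binding of the nuclear receptor RXRA was measured in livers of the naked mole-rat (Heterocephalus glaber, NMR) and the Damaraland mole-rat (Fukomys damarensis, DMR), both subterranean rodents. The members were the 4 peak lists whose labels name liver and an RXRA antibody, from animals NMR30, NMR35, DMR1 and DMR4, out of 160 samples in all, of which 116 had a peak list. Chromatin was crosslinked, broken by sonication and pulled down with the antibody, and places where the recovered DNA exceeded the input chromatin of the same liver were called as peaks. The animals were wild-type adult males, and the labels name no treatment: NMR30 was 13 months old, NMR35 15 months, and DMR1 and DMR4 an estimated 48 months, so species and age cannot be told apart. Each library came from whole liver tissue of 1 animal, and a larger share of cells with a bound site cannot be told apart from more binding per cell. Liver libraries of CEBPA and FOXA1 (4 each), HNF4A (NMR30, NMR35 and DMR4) and HNF6 (DMR1) came from the same 4 animals. Histone libraries gave liver and heart peaks of H3K4me3, H3K27ac and H3K4me1 for 2 to 5 animals per species.

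RXRA, the retinoid X receptor alpha, is a ligand-regulated transcription factor that pairs with other nuclear receptors, among them those for fatty acids, bile acids, oxysterols and retinoic acid. In the liver these pairs are known for control of lipid, bile acid and retinoid metabolism. Among histone marks, H3K4me3 is typical of promoters, H3K27ac of promoters and enhancers in use, and H3K4me1 of enhancers in use or in a primed state. CEBPA is a leucine zipper factor of hepatocyte metabolism, FOXA1 a forkhead factor that can bind closed chromatin, HNF4A a nuclear receptor that binds as a pair with itself, and HNF6 a cut-homeodomain factor.

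Some lists stood apart from the others. The H3K4me3 list of NMR30 liver held 253457 peaks, against 27591 to 48726 in the other 4 naked mole-rat livers, and it is 1 of 5 lists behind the naked mole-rat H3K4me3 consensus. Without it no H3K4me3 share by rank, around the summit or by number of other factor lists given below for the naked mole-rat moved by more than 1.5 times. The largest steps were from 35% to 34% (NMR30, ranks 1 to 100) and from 23.9% to 22.7% (regions met by all 6 other lists). The DMR4 RXRA list differed from the other 3 RXRA lists in width, fold and share in marks, as described below. The file of DMR1 carried another library tag than those of the other 3 RXRA lists, and the labels do not say what the tag stands for. Between 97.4% and 99.7% of RXRA peaks lay on scaffolds that also held histone peaks. Scaffolds reaching 1 Mb held 68.6% of NMR30, 69.1% of NMR35, 89.3% of DMR1 and 91.4% of DMR4 RXRA peaks. Read depth is unknown, since these lists give no numbers of reads.

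The RXRA lists held 26218 peaks in NMR30, 52725 in NMR35, 40759 in DMR1 and 53184 in DMR4. The animals of 1 species thus differed more from each other than the species did, and the ranges overlapped. On the log2 scale naked minus Damaraland mole-rat was −0.32 (15.2 ± 0.713 against 15.5 ± 0.271, SD, n = 2 each; two-sided exact permutation p = 0.667, adjusted p = 0.889 over 8 species comparisons). With 2 libraries against 2 no p below 0.333 can be reached, so none of the species comparisons could pass a threshold of 0.05. Without NMR30 the difference became 0.18.

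RXRA peaks were short, and many were as narrow as the list allowed. The median width was 302.5 bases in NMR30, 311 in NMR35, 274 in DMR1 and 437 in DMR4. The narrowest width in a list, between 255 and 278 bases, was shared by 44.5% of NMR30, 41.2% of NMR35, 45.8% of DMR1 and 14.1% of DMR4 peaks. DMR4 was therefore the library whose widths stood above this floor. The species difference was −48.75 bases (307 ± 6.01 against 355.5 ± 115, SD, n = 2 each; exact permutation p = 1, adjusted p = 1). It was −130.25 bases without DMR1, which leaves the 3 libraries of 1 tag, and 32.75 bases without DMR4. A few peaks were very wide: 5, 8, 1 and 5 in the same order exceeded 5 kb.

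Fold enrichment over background, the ratio the peak caller gives each peak, was used to describe peaks within a list. Its median was 4.73 in NMR30, 4.95 in NMR35, 4.66 in DMR1 and 6.54 in DMR4, and its 99th percentile was 21.6, 32.3, 18.8 and 50.7. Peaks were ranked by the caller's −log10 p, the strongest first. From ranks 101 to 1000 to ranks 10001 to 20000, the median width went from 656 to 278 bases in NMR30, from 855 to 378 in NMR35, from 620 to 281 in DMR1 and from 1021.5 to 543 in DMR4. Median fold went from 15.9 to 4.49, from 31.9 to 6.21, from 17.6 to 5.16 and from 51.2 to 10.1 over the same ranks. DMR4 peaks had the highest median fold and width of the 4 lists in these rank ranges, but not at ranks 1 to 100 in fold, where NMR35 had 97.7 and DMR4 83.7. In DMR4 88.3% of peaks reached a −log10 q of 4, against 55.6% to 61.7% in the others.

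Overlap between the 2 animals of a species was high for strong RXRA peaks and low for weak ones. Of the peaks at ranks 101 to 1000, 99.6% of NMR30, 98.7% of NMR35, 96.7% of DMR1 and 98.4% of DMR4 overlapped a peak of the other animal. At ranks 5001 to 10000 the shares were 58.7%, 50.1%, 82.1% and 69.4%, and at ranks 10001 to 20000 they were 27.1%, 23.0%, 42.3% and 40.4%. In both rank ranges each Damaraland mole-rat list lay above each naked mole-rat list; this difference was not tested. Over all peaks, 42.4% of NMR30 peaks were met in NMR35 and 20.6% of NMR35 peaks in NMR30. In the Damaraland mole-rat 41.7% of DMR1 peaks were met in DMR4 and 30.7% of DMR4 peaks in DMR1.

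**Figure D1:**
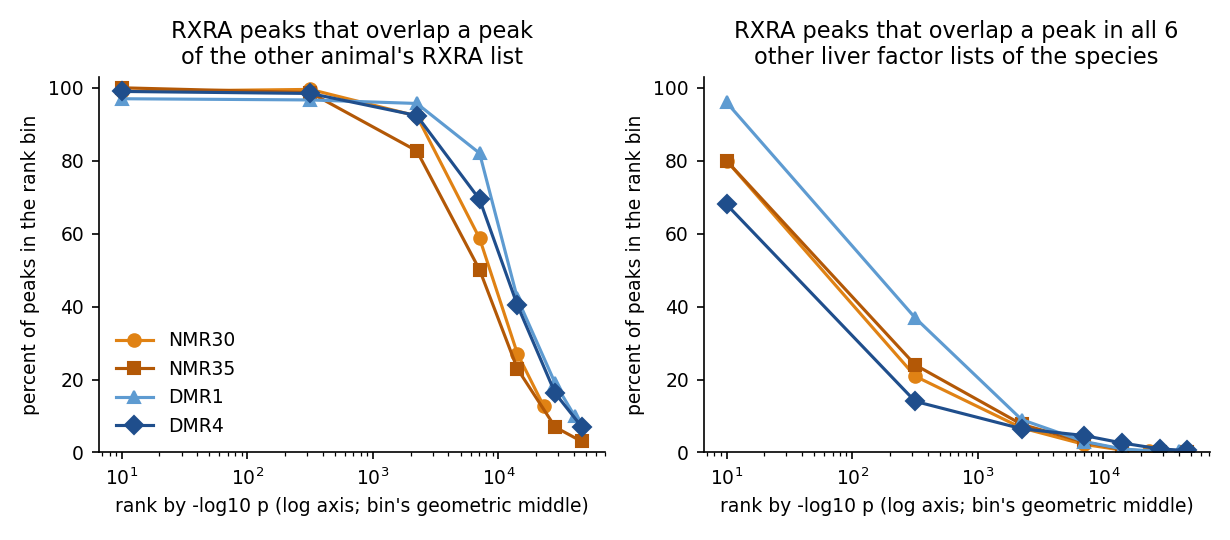
Percent of RXRA peaks that overlap a peak of the other animal's RXRA list (left) and a peak in all 6 other liver factor lists of the species (right), by rank on a log axis, 1 line per library. In the left panel all 4 lists start at 97.0% or more and end between 3.03% and 12.7%; in the right panel the share is 68.0% to 96.0% for ranks 1 to 100 and at most 2.58% from rank 10001 on.

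In shared bases, the overlap of the 2 animals divided by what either covered was 17.1% in the naked mole-rat and 19.3% in the Damaraland mole-rat. Among the top 10000 peaks it was 33.2% and 30.8%. For comparison, the top 10000 peaks of CEBPA gave 51.9% and 34.3%, those of FOXA1 34.5% and 32.5%, and those of HNF4A 22.3% in the naked mole-rat. Every RXRA list shared more with the other animal's RXRA list than with any other factor list when the top 10000 peaks were compared. The closest other list was HNF4A of NMR35 for both NMR35 (25.5%) and NMR30 (17.3%), and HNF4A of DMR4 for both DMR4 (23.7%) and DMR1 (19.4%). With all peaks this order changed in DMR4, whose overlap with its own CEBPA list was 23.4%, with its HNF4A list 20.0% and with DMR1 RXRA 19.3%.

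Joined over both animals, RXRA peaks formed 10789 regions found in both naked mole-rats and 16284 found in both Damaraland mole-rats, 15.9% and 21.2% of all regions. These shared regions had a median width of 626 bases in the naked and 690.0 bases in the Damaraland mole-rat. The strongest summits of the 2 animals lay a median of 63 and 55 bases apart, and 67.0% and 72.2% lay within 100 bases. Across shared regions the ranks of the 2 animals had a Spearman correlation of 0.60 (10789 regions) and 0.57 (16284 regions); the regions share libraries and are not independent replicates.

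The next question was how often RXRA summits lay in liver chromatin with each histone mark. A consensus peak was a stretch found in at least 2 livers of the same species. For H3K4me3 it held 12.02% of NMR30 summits (Wilson 95% interval 11.6% to 12.4%), 15.1% of NMR35 (14.8% to 15.4%), 5.38% of DMR1 (5.17% to 5.60%) and 12.4% of DMR4 (12.2% to 12.7%). DMR1 was the low library, and NMR35 the high one. The naked minus Damaraland mole-rat difference was 4.64 percentage points (13.5 ± 2.16 against 8.91 ± 4.99, SD, n = 2 each; exact permutation p = 0.667, adjusted p = 0.889). The Damaraland mole-rat had 2 liver H3K4me3 libraries, so its consensus needed both, whereas the naked mole-rat needed 2 of 5. With a consensus made from the 2 RXRA animals in each species, an alternative chosen after seeing the data, the 4 shares were 8.23%, 10.2%, 5.38% and 12.4%, and the difference was 0.33 points. In the naked mole-rat this consensus needed both lists, 1 of them the outlying NMR30 list. With the H3K4me3 list of the same animal alone the shares were 12.1%, 15.0%, 5.69% and 18.5%, and the difference was 1.44 points. Without the H3K4me3 list of NMR30 the difference was 4.40 points, without the DMR1 RXRA library 1.12 points and without that of DMR4 8.17 points.

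H3K27ac consensus peaks held 26.0% of NMR30 (25.5% to 26.5%), 27.7% of NMR35 (27.3% to 28.1%), 29.1% of DMR1 (28.7% to 29.6%) and 50.8% of DMR4 summits (50.3% to 51.2%). Both Damaraland mole-rat libraries thus lay above both naked mole-rat libraries, but DMR1 lay close to NMR35 and far from DMR4. The difference was −13.1 points (26.8 ± 1.18 against 39.96 ± 15.3, SD, n = 2 each; exact permutation p = 0.333, adjusted p = 0.889). It was −2.32 points without DMR4 and −23.9 points without DMR1.

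H3K4me1 gave the same order, with 23.3% of NMR30, 24.5% of NMR35, 24.8% of DMR1 and 48.5% of DMR4 summits. The difference was −12.8 points (23.9 ± 0.834 against 36.6 ± 16.7, SD, n = 2 each; exact permutation p = 0.333, adjusted p = 0.889), and it was −0.93 points without DMR4 and −24.6 points without DMR1. Consensus peaks covered 2.67% of the scaffold length reached by any peak for H3K27ac and 4.58% for H3K4me1 in the naked mole-rat, and 3.69% and 6.25% in the Damaraland mole-rat. When 1 kb to either side of the summit was searched for consensus peaks of the 3 marks, 50.5% of NMR30, 52.3% of NMR35, 49.0% of DMR1 and 88.1% of DMR4 RXRA summits had at least 1. On this wider scale the 2 species overlapped.

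With the full lists, other factors of the same livers differed between the animals in the same direction as RXRA. In the naked mole-rat the share in each of the 3 marks was higher in NMR35 than in NMR30 for 4 of 4 factors. These were RXRA itself, CEBPA, FOXA1 and HNF4A. In the Damaraland mole-rat it was higher in DMR4 than in DMR1 for 3 of 3 factors measured in both, namely RXRA itself, CEBPA and FOXA1. The lists differ in length, and with the top 19398 peaks of every list the order was kept in the Damaraland mole-rat only. In the naked mole-rat CEBPA turned round in all 3 marks, with 33.9% in NMR30 and 33.1% in NMR35 for H3K27ac. FOXA1 turned round in H3K4me3, with 7.05% and 6.32%, while RXRA and HNF4A stayed higher in NMR35. The part of the animal in the RXRA values was not tested.

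The share in marks depended on peak rank, and the strongest peaks of the 2 species differed. At ranks 1 to 100, 52.0% of NMR30 and 49.0% of NMR35 summits lay in H3K27ac, against 3% of DMR1 and 30% of DMR4. H3K4me3 held 35.0% and 31.0% of these summits in the naked mole-rat, against 3% and 7% in the Damaraland mole-rat. The other factors of these livers showed the same contrast at ranks 1 to 100: H3K27ac held 33% to 51% of summits in the 6 naked and 0% to 21% in the 6 Damaraland mole-rat lists, and H3K4me3 12% to 34% and 0% to 3%. It was therefore not particular to RXRA. Scaffolds reaching 1 Mb held 52% of NMR30, 54% of NMR35, 7% of DMR1 and 30% of DMR4 RXRA peaks at ranks 1 to 100. Over all ranks they held 68.6%, 69.1%, 89.3% and 91.4%. The part of scaffold length in this contrast was not tested. At ranks 1001 to 5000 the order for H3K27ac was turned round: 43.8% of NMR30 and 47.0% of NMR35 against 58.0% of DMR1 and 62.8% of DMR4. For H3K4me3 at the same ranks the naked mole-rat stayed higher, with 18.8% and 22.4% against 7% and 6.78%, and with a consensus of the RXRA animals alone it was 12.3% and 14.9% in the naked mole-rat. H3K4me1 held 38.5%, 37.8%, 38.0% and 41.6% at these ranks, so the 4 libraries lay close together.

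Beyond rank 10000 the 2 Damaraland mole-rat libraries parted. At ranks 20001 to 40000, H3K27ac held 21.7% of NMR35 and 16.5% of DMR1 summits but 50.8% of DMR4 summits. H3K4me1 held 21.0%, 16.9% and 52.1% of the same peaks. The H3K4me3 share of DMR4 was higher at weak ranks than at strong ones, with 4.22% at ranks 101 to 1000 and 14.7% at ranks 20001 to 40000, whereas in NMR35 it was 19.0% and 12.2%.

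**Figure D2:**
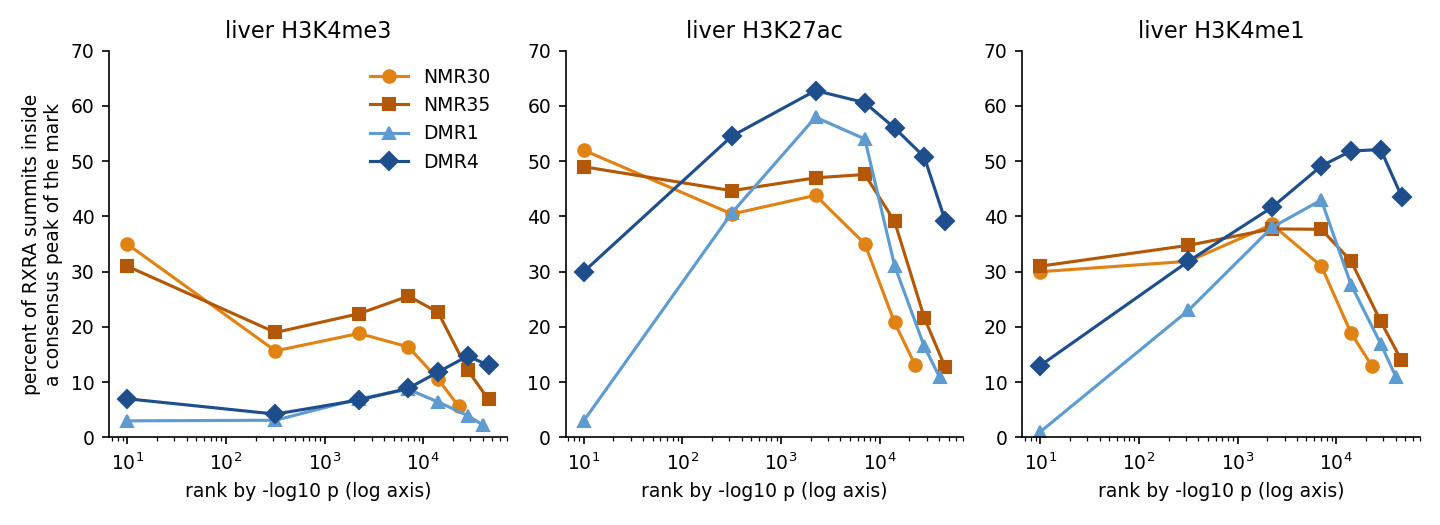
Percent of RXRA summits inside a liver consensus peak of each mark (vertical axes), by rank on a log axis, 1 line per library. In the middle panel the Damaraland mole-rat lists start at 3% and 30%, rise to 58.0% and 62.8% at ranks 1001 to 5000, and part at weaker ranks, where DMR4 stays above the other 3. At ranks 1 to 100, 7% of DMR1 and 30% of DMR4 peaks lie on scaffolds reaching 1 Mb.

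Mark coverage dipped at the RXRA summit. For ranks 101 to 5000, H3K27ac consensus peaks covered 43.2% of NMR30, 46.6% of NMR35, 54.8% of DMR1 and 61.3% of DMR4 summits. At 300 bases to either side, the offset of highest coverage in each of the 4 lists, they covered 61.0%, 61.2%, 74.6% and 86.2% of positions. H3K4me1 was highest 400 to 500 bases away, at 59.9%, 57.9%, 70.7% and 81.0%, against 37.3%, 37.2%, 35.3% and 39.9% at the summit. At the summit itself the 4 lists therefore differed little in H3K4me1, while the flanks were higher in both Damaraland mole-rats than in both naked mole-rats. By 3 kb away H3K27ac coverage was down to 21.5%, 22.0%, 25.6% and 30.5%.

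For H3K4me3 the dip was smaller in percentage points, as was its coverage. Its highest coverage was 19.8% in NMR30 and 23.4% in NMR35, 200 bases from the summit, against 18.2% and 21.8% at the summit. In DMR1 and DMR4 it was 9.94% and 11.6%, 300 and 400 bases away, against 6.29% and 6.31%. At ranks 5001 to 20000 the dips were smaller: for H3K27ac the highest flank minus the summit was 4.52 points in NMR30, 6.14 in NMR35, 7.68 in DMR1 and 16.4 in DMR4, against 17.8, 14.7, 19.8 and 24.9 at ranks 101 to 5000.

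**Figure D3:**
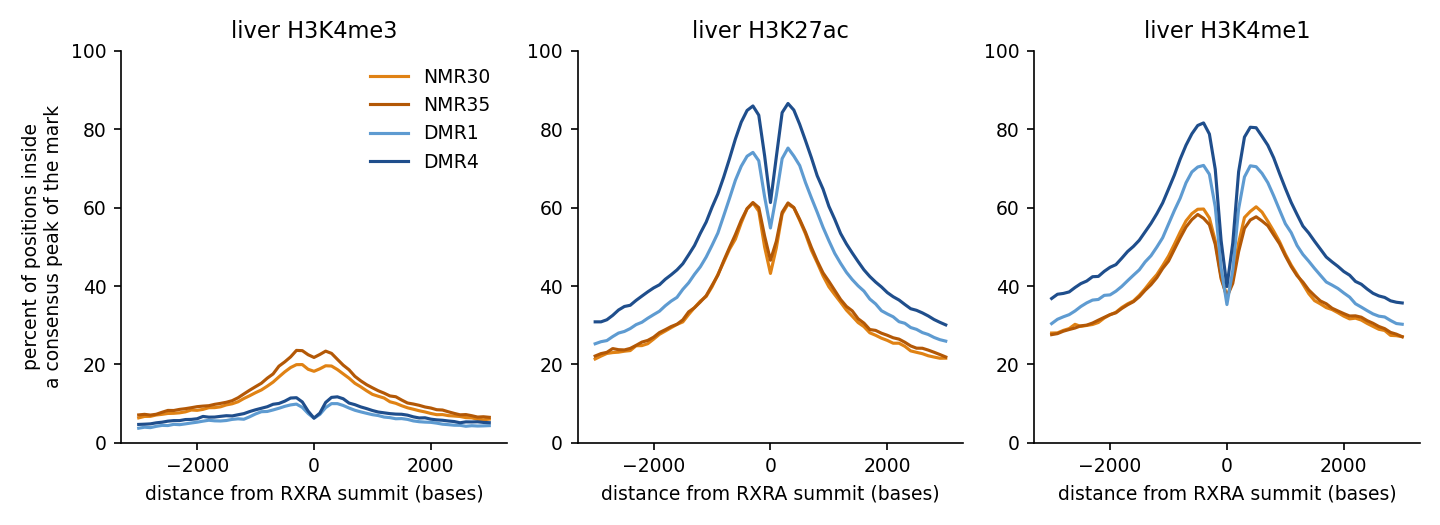
Percent of positions inside a liver consensus peak of each mark (vertical axes), by distance from the RXRA summit in bases, for ranks 101 to 5000 of each list. H3K27ac and H3K4me1 peak 300 to 500 bases to either side of the summit and dip at it in all 4 lists.

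Distances from each RXRA summit to the nearest mark summit in the list of the same animal gave a similar picture. For H3K27ac the median distance was 5398 bases in NMR30, 2402 in NMR35, 5191 in DMR1 and 362 in DMR4. DMR4 was the near library, and the other 3 spanned both species. The species difference was 1123.5 bases (3900.0 ± 2118 against 2776.5 ± 3415, SD, n = 2 each; exact permutation p = 0.667, adjusted p = 0.889). Its sign turned to −374.5 bases without NMR30 and to −1291 bases without DMR4. For H3K4me1 the medians were 1971, 1734, 2347.5 and 467 bases, with a difference of 445.25 bases (exact permutation p = 1, adjusted p = 1) that became −495 bases without DMR4.

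For H3K4me3 the medians were 2477 bases in NMR30, 16086 in NMR35, 34592 in DMR1 and 11806 in DMR4, with a difference of −13917.5 bases (exact permutation p = 0.667, adjusted p = 0.889). The NMR30 value rests on the list of 253457 peaks, and without it the difference was −7113 bases; without DMR1 it was −2524.5 bases. Scaffolds without a mark summit in the animal's list, which give no distance, held between 0.652% and 5.85% of RXRA peaks over all ranks.

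By rank, the nearest H3K27ac summit was under 400 bases away in the middle of the strong range. At ranks 1001 to 5000 its median distance was 391 bases in NMR30, 373 in NMR35, 349 in DMR1 and 319 in DMR4. At ranks 10001 to 20000 it was 14548.5, 486, 4412 and 313 bases. Further down it reached 6146 bases in NMR35 and 22036 in DMR1 at ranks 20001 to 40000, and 915 bases in DMR4 below rank 40000. At ranks 1 to 100 it was 522 bases in NMR30, 583 in NMR35, 27778 in DMR1 and 385 in DMR4. Peaks on scaffolds without an H3K27ac summit in the animal's list are left out of these medians. Scaffolds reaching 1 Mb held 7% of DMR1 and 30% of DMR4 peaks at these ranks, against 52% and 54% in NMR30 and NMR35. How many of the 100 peaks gave a distance is not reported here. The DMR1 and DMR4 medians are therefore not set against those of weaker ranks.

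Liver marks held more RXRA summits than heart marks of the same species for H3K27ac and H3K4me1. In H3K27ac the liver share was 1.78 times the heart share in NMR30, 1.57 in NMR35, 2.15 in DMR1 and 1.89 in DMR4. In H3K4me1 the ratios were 4.90, 4.86, 2.91 and 3.22. These ratios depend on how much sequence each consensus covers: H3K4me1 covered 119 Mb in liver and 26.4 Mb in heart of the naked mole-rat, and 143 Mb and 70.4 Mb in the Damaraland mole-rat. Per Mb of H3K4me1 consensus there were 51.1 liver and 47.3 heart summits in NMR30, 108 and 101 in NMR35, 70.6 and 49.4 in DMR1, and 180 and 114 in DMR4. The liver excess in NMR30 and NMR35 was thus small per covered base. Per Mb of H3K27ac the liver and heart densities were 97.8 and 61.1, 209 and 148, 141 and 67.3, and 319 and 174. For H3K4me3 the ratios of liver to heart share were 1.36, 1.27, 0.966 and 0.874. The Damaraland mole-rat H3K4me3 consensus had 5 heart and 2 liver libraries behind it and covered 25.9 Mb in heart and 17.5 Mb in liver. Per Mb the liver value was the higher one there, with 125 against 87.6 summits in DMR1 and 378 against 292 in DMR4, while in the naked mole-rat it was 118 against 110 in NMR30 and 298 against 299 in NMR35. With a liver consensus of the RXRA animals alone the H3K4me3 ratios of NMR30 and NMR35 were 0.934 and 0.863. The heart consensus was left at 2 of 4 libraries, so a stricter liver consensus was set against a looser heart one. No direction is therefore given for this mark. Summits in a liver H3K27ac consensus peak that met no heart H3K27ac peak in any animal numbered 3176, 5968, 6592 and 13347. These were 12.1%, 11.3%, 16.2% and 25.1% of all RXRA summits of the list. Summits in a heart consensus peak that met no liver peak in any animal numbered 483, 1193, 718 and 1558, or 1.84%, 2.26%, 1.76% and 2.93%. No test was made, as the tissues have different numbers of libraries.

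RXRA summits were denser where more livers carried the mark. Bases with H3K27ac in 1 of 5 livers held 43.8 NMR30, 93.3 NMR35, 73.5 DMR1 and 184 DMR4 summits per Mb, and bases with it in 5 of 5 livers held 134, 292, 160 and 354. Bases with no H3K27ac peak in any liver held 7.11, 13.9, 12.2 and 9.35 summits per Mb. H3K4me1 showed little change between 3 and 5 livers, with 51.7 and 52.8 summits per Mb in NMR30 and 181 and 188 in DMR4. Read the other way, 5.17% of naked mole-rat H3K27ac consensus regions held an NMR30 summit and 10.8% an NMR35 summit, and 9.30% and 19.9% of Damaraland mole-rat regions held a DMR1 and a DMR4 summit. Of the H3K27ac regions above the 90th percentile of width the shares were 28.5%, 50.9%, 49.3% and 83.1%. That percentile was 1328 bases in the naked and 1812 in the Damaraland mole-rat, against median widths of 336 and 428 bases. A wider region has more bases in which a summit can fall, and no density per base is given for the widest regions.

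Within each list, peaks inside a mark had a higher median fold than peaks with no mark within 1 kb, while the marks differed little in NMR30. The median fold of peaks in H3K4me3 was 5.39 in NMR30, 5.76 in NMR35, 5.05 in DMR1 and 6.18 in DMR4. That of peaks in H3K27ac without H3K4me3 was 5.45, 5.93, 5.50 and 7.74, and that of peaks in H3K4me1 alone 5.39, 5.46, 5.00 and 6.37. For peaks with no mark within 1 kb it was 4.34, 4.47, 4.27 and 4.73. Peaks with no mark within 1 kb were seldom met in the other animal, in 13.7%, 6.85%, 5.48% and 18.0% of cases. Peaks in H3K27ac without H3K4me3 were met there in 75.4%, 37.8%, 89.9% and 38.4% of cases. The low value of each species in this class was that of its longer list. Peaks with no mark within 1 kb also ranked lower, at a median rank of 17251.5, 34088.5, 26772 and 41434. The median ranks of peaks in H3K27ac without H3K4me3 were 8021, 16286, 10782.5 and 21272. The part of rank in this contrast was not tested.

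RXRA was then compared with the other factors of the same 4 livers. A larger share of RXRA than of other factor summits lay in all 3 marks. In H3K4me3 the RXRA share was 11.2% ± 4.12 (SD, n = 4) and that of the other 12 libraries 4.22% ± 1.72 (SD, n = 12), a difference of 7.01 points within species (two-sided exact permutation p = 0.00255, adjusted p = 0.00383 over 3 marks). Without the H3K4me3 list of NMR30 this difference was 6.95 points (exact permutation p = 0.00255, adjusted p = 0.00383). In H3K27ac the shares were 33.4% ± 11.7 and 17.7% ± 7.74, a difference of 15.7 points (exact permutation p = 0.00128, the smallest that 784 exchanges allow; adjusted p = 0.00383). In H3K4me1 they were 30.3% ± 12.2 and 19.2% ± 8.04, a difference of 11.1 points (exact permutation p = 0.0242, adjusted p = 0.0242). In each mark RXRA had the highest share of all factors of the same animal in 4 of 4 animals. The test exchanged libraries, several of which were of the same factor, so these p-values do not measure the spread among factors.

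The numbers of peaks differed between these lists, from 19398 for FOXA1 in DMR4 to 122941 for CEBPA in NMR30, and shares were lower at weak ranks. With the top 19398 peaks of every list the H3K4me3 difference was 6.51 points (exact permutation p = 0.0115, adjusted p = 0.0344) and the H3K27ac difference 14.3 points (p = 0.0319, adjusted p = 0.0478). The H3K4me1 difference was 6.62 points (exact permutation p = 0.269, adjusted p = 0.269) and so no longer passed. RXRA was then highest in 3 of 4 animals for H3K4me3, the exception being DMR4, where HNF4A had 12.3% and RXRA 9.63%. It was highest in 3 of 4 for H3K27ac, the exception being NMR30, where CEBPA had 33.9% and RXRA 30.4%, and in 2 of 4 for H3K4me1. The H3K4me1 call was also lost without NMR30 (9.86 points, exact permutation p = 0.0625, adjusted p = 0.0625) and without NMR35 (12.3 points, p = 0.0536, adjusted p = 0.0536).

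**Figure D4:**
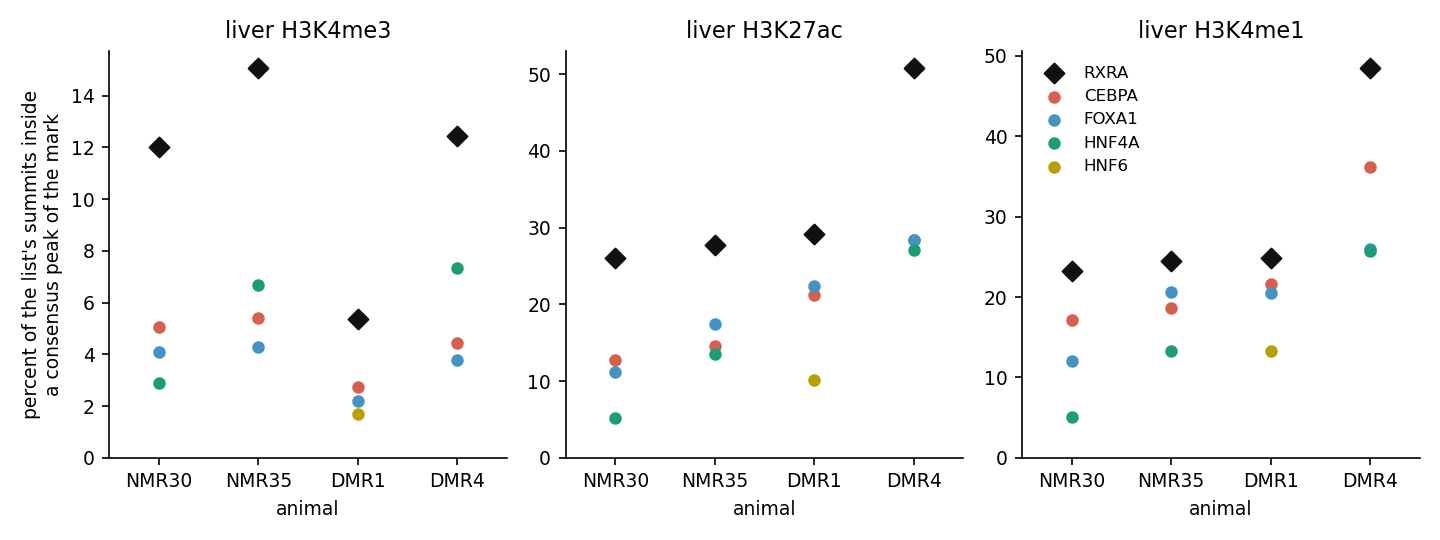
Percent of each factor list's summits inside a liver consensus peak of each mark (vertical axes, from 0), by animal. The black diamonds, RXRA, are the highest point in 4 of 4 animals in each panel, at 12.02%, 15.1%, 5.38% and 12.4% in H3K4me3.

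The H3K4me3 difference was also read at matched ranks. At ranks 1001 to 5000 of NMR35, H3K4me3 held 22.4% of RXRA, 19.2% of HNF4A, 12.3% of CEBPA and 6.30% of FOXA1 summits. At the same ranks of DMR4 it held 6.78% of RXRA, 11.4% of HNF4A, 3.75% of CEBPA and 4.30% of FOXA1 summits. HNF4A, the other nuclear receptor, was thus the nearest to RXRA in NMR35 and above it in DMR4. In NMR30 it was the farthest, with 18.8% for RXRA, 12.8% for CEBPA, 10.8% for FOXA1 and 9.75% for HNF4A. In DMR1, without an HNF4A list, the shares were 7% for RXRA, 4.20% for HNF6, 3.30% for CEBPA and 1.98% for FOXA1.

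With the full lists, heart marks also held a larger share of RXRA summits than of those of the other factors of the same animal. Of RXRA summits 17.9% in NMR30, 21.4% in NMR35, 17.0% in DMR1 and 33.6% in DMR4 lay in a heart consensus peak of any mark, against 4.52% to 10.2% of the other factors in the naked mole-rat and 6.78% to 20.1% in the Damaraland mole-rat. The ratio of liver to heart share was 1.88 to 2.25 for RXRA, 2.69 to 2.95 for CEBPA, 2.35 to 3.40 for FOXA1, 1.78 to 2.02 for HNF4A and 2.59 for HNF6. Across animals the shares overlapped, as RXRA of DMR1, at 17.0%, lay below HNF4A of DMR4, at 20.1%. Heart shares were not compared at equal numbers of peaks, and these shares and ratios were not tested.

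Most RXRA regions of both animals were also occupied by another factor. At least 1 of the 6 other liver lists met 86.4% of the shared naked mole-rat regions and 89.8% of the shared Damaraland mole-rat regions. Among regions found in a single animal the shares were 25.3% for NMR30, 41.0% for NMR35, 15.5% for DMR1 and 61.4% for DMR4. By list, CEBPA met 58.5% (NMR30) and 50.7% (NMR35) of shared naked mole-rat regions, HNF4A 28.1% and 52.8%, and FOXA1 42.0% and 47.7%. In the Damaraland mole-rat CEBPA of DMR4 met 70.7% and of DMR1 40.9%, HNF4A of DMR4 58.1%, FOXA1 35.1% (DMR1) and 31.2% (DMR4), and HNF6 of DMR1 25.5%.

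The marks at shared regions changed with the number of other lists. In the Damaraland mole-rat H3K4me1 held 59.4% of summits of the 1656 regions met by no other list, 44.9% at 3 lists and 8.37% at all 6. H3K27ac held 50.7%, 65.2% and 24.8% at the same numbers, and H3K4me3 16.8%, 8.74% and 1.80%. In the naked mole-rat H3K4me1 held 46.5% of summits of the 1466 regions met by no other list, 39.2% at 3 lists and 20.9% at 6. H3K27ac held 48.3%, 51.3% and 39.9%, and H3K4me3 32.6%, 20.3% and 23.9%. All 3 marks were thus lowest at 6 lists in the Damaraland mole-rat, whereas in the naked mole-rat H3K4me3 was lowest at 4 lists, with 14.7%. The 6 lists were not alike: in the naked mole-rat they were CEBPA, FOXA1 and HNF4A of both animals. In the Damaraland mole-rat they were CEBPA and FOXA1 of both animals, HNF4A of DMR4 and HNF6 of DMR1. The number therefore counts lists and not factors.

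The regions met by all 6 other lists numbered 766 in the naked and 1111 in the Damaraland mole-rat. Scaffolds reaching 1 Mb held 46.7% of these 1111 regions, against 92.9% of the Damaraland mole-rat regions met by no other list. In the naked mole-rat the shares were 60.1% and 71.7%. Peaks met by all 6 other lists also made up most of the strongest RXRA peaks: 80.0% of ranks 1 to 100 in NMR30 and NMR35, 96.0% in DMR1 and 68.0% in DMR4, against 2.77%, 1.63%, 2.67% and 2.26% of all RXRA peaks. Without such peaks, an alternative also chosen after seeing the data, the species differences in mark share were 4.25 points for H3K4me3, −13.8 for H3K27ac and −13.4 for H3K4me1.

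**Figure D5:**
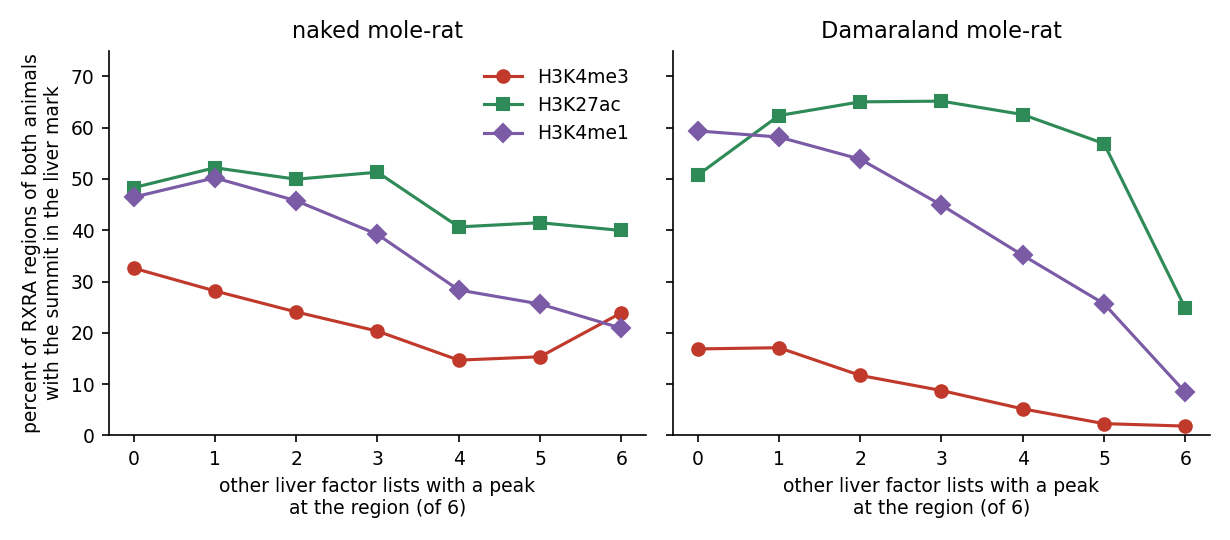
Percent of RXRA regions of both animals with the summit in a liver consensus peak of each mark (vertical axis), by the number of other liver factor lists with a peak at the region. In the Damaraland mole-rat H3K27ac goes from 65.2% at 3 lists to 24.8% at 6, and in the naked mole-rat from 51.3% to 39.9%. The 6 lists are not of the same factors in both species.

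By chromatin class, a larger share of naked than of Damaraland mole-rat shared regions carried the promoter pattern. H3K4me3 with H3K27ac at the summit was found at 20.5% (19.8% to 21.3%) of 10789 naked and 10.1% (9.62% to 10.5%) of 16284 Damaraland mole-rat regions. H3K27ac with H3K4me1 and no H3K4me3, the pattern of an active enhancer, was found at 16.9% (16.2% to 17.6%) and 28.3% (27.6% to 29.0%). H3K4me1 alone, the pattern of a primed enhancer, was found at 16.9% and 15.3%, and none of the 3 marks at 34.6% and 25.2%. Within 1 kb of the summit the promoter pattern reached 33.7% and 23.8%, the active enhancer pattern 40.3% and 61.4%, and no mark 15.9% and 6.87%. Each species gives 1 set of shared regions, so this difference was not tested. The H3K4me3 consensus was also uneven, with 2 of 5 livers asked for in the naked and 2 of 2 in the Damaraland mole-rat. With H3K4me3 from the RXRA animals alone, chosen after seeing the data, the promoter pattern was found at 14.9% and 10.1% of summits, and at 27.2% and 23.8% within 1 kb. In the naked mole-rat these values rest in part on the outlying H3K4me3 list of NMR30. With all 3 marks from those animals it was 13.8% and 9.48% at the summit, the active enhancer pattern 6.31% and 12.5%, and no mark 56.0% and 46.9%. Without the H3K4me3 list of NMR30 the naked mole-rat promoter share was 20.2%.

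The strongest shared regions differed in kind between the species. In the naked mole-rat (build HetGla_1.0, positions counted from 1) the 6 with the lowest sum of ranks held ranks 1 to 6 in both animals, and all 6 were met by all 6 other factor lists. The first, JH170919.1:28686-29122, had a fold of 16438 in NMR30 and 33896 in NMR35 and met a liver H3K27ac peak in 1 of 5 animals. The second, JH172194.1:216160-216584, had folds of 2530 and 8794 and met H3K4me3 and H3K27ac in 5 of 5 livers. JH172833.1:257091-257646 had folds of 1075 and 2052 and met H3K27ac in 5 of 5 livers. JH204773.1:222203-224018, with folds of 952 and 1569, met all 3 marks in 5 of 5 livers and H3K27ac in 0 of 3 hearts. JH167839.1:12672-13469 (folds of 657 and 999) and JH170858.1:250356-251599 (563 and 1260.2) met H3K4me3 and H3K27ac in 5 of 5 livers and H3K4me3 in 4 of 4 hearts.

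In the Damaraland mole-rat (build DMR_v1.0) the 6 strongest shared regions lay on scaffolds that peaks reach over 535 to 19108 bases only. None of the 6 met a liver peak of any mark, and all 6 were met by all 6 other factor lists. KN124264.1:3102-4301 was first in both animals, with a fold of 244 in DMR1 and 144 in DMR4, and met H3K4me3 in 1 of 5 hearts. KN121233.1:8154-9145 had folds of 141 and 86.4, KN123892.1:10612-12646 had 95.7 and 75.6, and KN123668.1:1002-2022 had 18.0 and 12.1. KN125078.1:627-1850 reached 2448 and 2035, and KN115258.1:1-535 reached 1029 and 749. The 3 at KN124264.1, KN121233.1 and KN123892.1 were also the strongest regions with no summit in a liver mark. In the naked mole-rat those were JH170919.1:28686-29122, JH172833.1:257091-257646 and JH170858.1:250356-251599, which met mark peaks beside the summit.

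Regions on scaffolds reaching 1 Mb, in liver H3K27ac and without a heart peak of any mark, were picked after their values were seen. In the naked mole-rat the strongest was JH171101.1:2836347-2838049, at rank 12 in both animals with folds of 187 and 494, H3K27ac and H3K4me3 in 5 of 5 livers and all 6 other factor lists. JH171405.1:1149371-1151289, at ranks 26 and 38 with folds of 84.4 and 81.5, had all 3 marks in 5 of 5 livers, with H3K27ac folds of 18.5 to 63.1. In the Damaraland mole-rat KN123337.1:895069-897273 held ranks 174 and 90 with folds of 36.8 and 133, H3K27ac in 5 of 5 livers (folds of 40.7 to 67.4) and 2 of 6 other lists. KN122326.1:1675675-1677009 held ranks 194 and 79 with folds of 31.5 and 138, H3K27ac and H3K4me1 in 5 of 5 livers and 2 of 6 other lists.

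Regions met by no other factor list, picked in the same way, also carried liver marks. JH166724.1:1740928-1742326 of the naked mole-rat, at ranks 211 and 214 with folds of 21.8 and 42.1, had H3K27ac and H3K4me1 in 5 of 5 livers and no heart peak. JH166228.1:454412-455207, at ranks 158 and 168 with folds of 29.4 and 51.6, had H3K4me3 and H3K27ac in 5 of 5 livers and H3K4me3 in 4 of 4 hearts. KN122870.1:1527209-1528504 of the Damaraland mole-rat, at ranks 530 and 338 with folds of 17.8 and 40.5, had H3K27ac and H3K4me1 in 5 of 5 livers. KN121537.1:1756481-1757190, at ranks 246 and 152 with folds of 34.0 and 91.7, had H3K4me3 in 2 of 2 and H3K27ac in 5 of 5 livers. The genes at these regions were not analysed here.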

How the data were processed

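One peak list per library, of 68 mole-rat lists, was used. Peaks were called against an input of the same liver, per the file names; the submitters' processing notes name MACS2 without a version. The deposited fold enrichment (column 7) is the authors' linear ratio, and the deposited −log10 p (column 8), −log10 q and score are the caller's own; the lowest −log10 q was 1.30. Scaffold names were those of builds HetGla_1.0 and DMR_v1.0, per the names of the deposited histone files. The aligner was not given in the sources used here.

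Overlaps, consensus peaks (at least 2 libraries), shares and distances were computed with SciPy 1.17.1, pandas 2.3.3 and NumPy 2.4.6 under Python 3.11.15, checked on simulated intervals. Peaks are not replicates: each library gave 1 value, compared by exact permutation with Benjamini-Hochberg adjustment over 8 species and 3 factor comparisons. Factor lists of 1 animal pair by the animal named in the labels, and the animal was a block in an alternative; no block exists between species. Alternatives changed the q threshold, scaffolds, number of peaks, consensus and overlap rule, and left out libraries. Wilson intervals cover counting error only. Members, lists and rules were chosen with earlier results of these data known. Named regions were those of both animals with the lowest sum of ranks: 6 per species, and 3 among those whose summits lay in no liver mark.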

Additional observations from a re-analysis of the deposited data

Results flagged for a closer look

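The H3K4me3 list of NMR30 liver, 1 of the 5 behind the naked mole-rat consensus, held 253457 peaks, and its gap to the next list, of 48726, divided by the group's range was 0.906, above Dixon's 95% critical value of 0.71. Of 9 histone groups of 4 or 5 libraries examined it was the one beyond that value; chance alone places about 1 in 20 groups there.

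The step from the strongest RXRA peaks (ranks 1 to 100) to weaker ones (ranks 10001 to 20000) went in opposite directions in the 2 species, in 2 of 2 libraries each. For H3K27ac the strong minus the weak share was 31.2 points in NMR30 and 9.88 in NMR35, against −28.1 in DMR1 and −26.0 in DMR4, a species gap of 47.6 points. For H3K4me3 it was 24.5 and 8.35 against −3.42 and −4.83, a gap of 20.5 points. The difference was not tested. Scaffolds reaching 1 Mb held 52% of NMR30, 54% of NMR35, 7% of DMR1 and 30% of DMR4 peaks at ranks 1 to 100. The part of scaffold length in these steps was not tested either. Without peaks met in all 6 other factor lists the H3K4me3 steps kept their signs (29.6, 12.3, −6.47 and −8.96), while for H3K27ac that of DMR4 became 11.8. Only 20, 20, 4 and 32 of the 100 top peaks were left for these values. The other factor lists of the same livers had steps of the same direction from ranks 1 to 100 to ranks 10001 to 19000, in 6 of 6 naked and 6 of 6 Damaraland mole-rat lists for both marks. The Damaraland mole-rat H3K4me3 steps rest on few summits, with shares of 0% to 3% at ranks 1 to 100. That of FOXA1 of DMR4 went only from 3% to 3.17%. For H3K27ac the share went from 51% to 3.91% for HNF4A of NMR30 and from 43% to 32.0% for CEBPA of NMR30, and from 21% to 41.3% for CEBPA and from 11% to 42.9% for HNF4A of DMR4. The pattern is thus shared by the factors and not a trait of RXRA alone.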

How the results depend on the processing

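Of 83 values of the 8 species comparisons under alternatives, 78 kept their sign, none passing a threshold that 2 libraries against 2 cannot reach. The 5 that changed sign left out 1 library: over these the log2 peak number ran from −0.83 to 0.18, the median width from −130.25 to 32.75 bases, and the median distance from −1291 to 3538 bases for H3K27ac and from −495 to 1385.5 bases for H3K4me1. Of 49 values of RXRA against the other factors all kept their sign and 44 kept their side of the threshold; the other 5 were H3K4me1 with 1 base of overlap (14.8 points), with equal numbers of peaks (6.62 points, also with the block, a combination chosen after seeing the data), without NMR30 (9.86 points) and without NMR35 (12.3 points). Leaving out each of the 4 animals gave 7.88 to 14.3 points, and the call held without DMR1 or DMR4. With the animal as replicate block the differences were 7.01, 15.7 and 11.1 points (exact permutation p = 0.00391 each), and no call changed. That p is the smallest that 256 exchanges allow, so it does not rank the 3 marks. Replicate overlap, 17.1% in the naked and 19.3% in the Damaraland mole-rat, became 26.6% and 34.5% when regions overlapping by 50% of the shorter one were counted as shared, 22.7% and 25.1% with equal numbers of peaks, 22.1% and 20.4% at a −log10 q of 4, 16.8% and 18.7% on scaffolds reaching 1 Mb, and 15.5% and 17.9% without peaks met in all other lists. Unknown depth, 2 animals per species and 2 assemblies limit every species comparison.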
